A study of Mus musculus with 4 samples.

Results

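The genes described here are the nuclear-encoded subunits of the mitochondrial respiratory chain and of ATP synthase, read in cells of the mouse femoral periosteum that had been sorted by a Sox9-lineage label. They were chosen by name alone. The rule took protein-coding genes of the deposited table whose symbols start with Nduf followed by a subunit letter and a number, with Uqcr, with Cox4 to Cox8 or with Atp5, together with Sdha, Sdhb, Sdhc and Sdhd. It found 84 of the 47643 genes listed, of which 37 fell in complex I, 4 in complex II, 8 in complex III, 18 in complex IV and 17 in complex V. For 5 of them the name is older than the assignment: Ndufa4 is a subunit of complex IV, Ndufa4l2 is its paralogue, Cox7a2l is a factor that joins complexes III and IV, and Atp5s and Atp5sl are not structural subunits of ATP synthase.

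The respiratory chain passes electrons from NADH (complex I) and succinate (complex II) through complex III to oxygen at complex IV, and complex V, the ATP synthase, makes ATP with the proton gradient that complexes I, III and IV build up. Each complex except complex II mixes subunits made in the cytosol from nuclear genes with a few made inside the mitochondrion from its own DNA, and surrounds a catalytic core inherited from bacteria with small accessory proteins. Several complex IV subunits exist as a ubiquitous form and a second form used in heart and skeletal muscle, lung or testis. Skeletal stem and progenitor cells, cartilage and bone-forming cells and blood cells are known to lean on respiration and glycolysis to different degrees.

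Both groups came from the same pooled mice, double heterozygotes with a tamoxifen-inducible Cre at the Sox9 locus (Sox9CreErt2) and a Cre-dependent Td-Tomato reporter at the ROSA26 locus. All mice received tamoxifen by 3 intraperitoneal injections (100 µL at 20 mg/mL, every 48 h). Unfractured femora were taken 2 weeks after the final dose. Cells released from the diaphyses with liberase (100 µg/mL, 2 h) were sorted into TdTomato+ cells, which had expressed Sox9 around the time of tamoxifen or descend from such cells, and TdTomato- cells, the rest of the digest. Mice were pooled: about 10000 cells of each kind came from 18 femora of 9 mice in 2 collections, so that each group has 2 libraries and the p-values measure only the spread between pools. The age of the mice is not given in the labels. In bulk libraries, more cells of a type and more RNA per cell cannot be told apart.

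Depth, inferred from the values, came to 32.0 M and 41.6 M reads for TdTomato+ and to 17 M and 74.0 M for TdTomato-. No value carries a collection number, so the libraries are named by group and depth, and values below are always given with the lower depth first. The negative library of higher depth stands apart. Over marker genes whose library values are settled (a term explained in the next paragraph), its summed RPKM per kilobase of genomic span was 0.0218 for the fibroblast and tendon genes Scx and Tnmd, against 15.1 in the other negative library and 72.3 and 13.9 in the positive ones. For the osteoblast genes Dmp1, Ibsp and Sp7 it was 0.0615, against 7.48, 64.4 and 10.3. Over the whole lists, with every order of unsettled values allowed, the sums of 5 fibroblast and tendon genes lay between 110 and 1010 in positive and between 0.275 and 181 in negative libraries, and those of 6 osteoblast genes between 866 and 4520 and between 0.831 and 669. The 6 chondrocyte genes found all had their higher mean in positive cells (median log2 fold 4.98). The sums of 10 neutrophil genes lay between 3440 and 15100 in positive and between 6910 and 40700 in negative libraries, and those of 7 erythroid genes between 3990 and 18600 and between 4200 and 79600, so blood cell transcripts were present in both sorted groups.

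Of the 84 genes, 82 had at least 10 reads in at least 2 libraries, the filter that 17117 genes of the table passed. The exceptions were Cox7b2 and Cox8c, testis forms of complex IV subunits, which are listed at 0 reads in all 4 libraries. Levels compared between genes are RPKM with the transcript length in place of the genomic span (called the level). The fold is the difference between the groups' means of log2(RPKM + 0.1), with RPKM per kilobase of genomic span. It needs no knowledge of which value belongs to which library. The single library values do, and they were settled for both groups in 31 of the 82 genes. Where the positive values of a subunit were not settled both orders are given. The negative values are then given in the order in which the 2 libraries differ less, which was the right one for 36 of 36 subunits and 94.1% of 6016 other genes that whole reads decided. For the positive group that order was right in only 14 of 33 subunits.

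Nearly every subunit had a higher mean in TdTomato-positive than in TdTomato-negative cells, by a modest amount. Of 82 subunits, 80 had a log2 fold above 0, a direction found for 54.0% of all 17117 genes tested. The median log2 fold was 0.79 (1.73-fold) over the subunits and 0.06 (1.04-fold) over all tested genes. The exceptions were Ndufs1, the largest core subunit of complex I, at -0.73, and Sdha, the catalytic flavoprotein of complex II, at -0.24. When each library was left out in turn, with unsettled values in the order of smaller difference, 69 of the 82 kept their direction in all 4 cases. The sign turned without the negative library of lower depth for Atp5a1, Atp5b, Atp5c1, Atp5f1, Sdhd, Uqcrc1, Uqcrc2 and Uqcrfs1, and without that of higher depth for Atp5s, Cox6a2, Ndufa10 and Sdha. It turned without the positive library of lower depth for Cox6a2 and Ndufa10, and without that of higher depth for Cox6b2, Sdhd and Uqcrfs1. Among the 31 subunits with settled values, the lower positive library exceeded the higher negative one in 23, as it did in 19.4% of the 11648 genes settled. Over all 82, with the positive values in either order and the negative ones as above, this held for 59, against 19.2% of tested genes. With every order allowed in both groups it held for 31 subunits, against 15.5% of tested genes, and no subunit had both negative libraries on top, as 13.1% of tested genes did. Most marker lists of blood cells lay the other way. All 10 neutrophil, 7 erythroid, 4 B cell, 3 T and NK cell and 3 general leukocyte genes had a log2 fold below 0. Their medians were -1.37, -1.37, -1.39, -1.34 and -1.48. The macrophage list did not: 3 of its 4 genes were above 0, with a median of 0.61. The part of blood cells in the difference was not tested.

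No single subunit passed the test. In the table deposited by the authors, 0 of the 82 had a step-up FDR below 0.05, a threshold that 3 of 47643 genes (0.0063%) passed, and only Ndufa4l2 had an unadjusted p below 0.05 (0.00342, FDR 1.0), against 2.17% of tested genes. With limma on log2(RPKM + 1) of the recovered values 0 subunits passed an FDR of 0.05, with 0.374 the smallest value among them. In that fit 49 of 82 had an unadjusted p below 0.05, against 9.48% of all tested genes. It took unsettled values in the order of smaller difference, which keeps the spread within a group small for those genes. In the limma fit of settled genes alone 14 of 31 subunits had such a p, against 7.05% of the genes in that fit. An exact permutation test of 2 against 2 libraries cannot give a two-sided p below 0.333 for any one gene. The counts above therefore describe the set and are not calls of single genes.

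**Figure D1:**
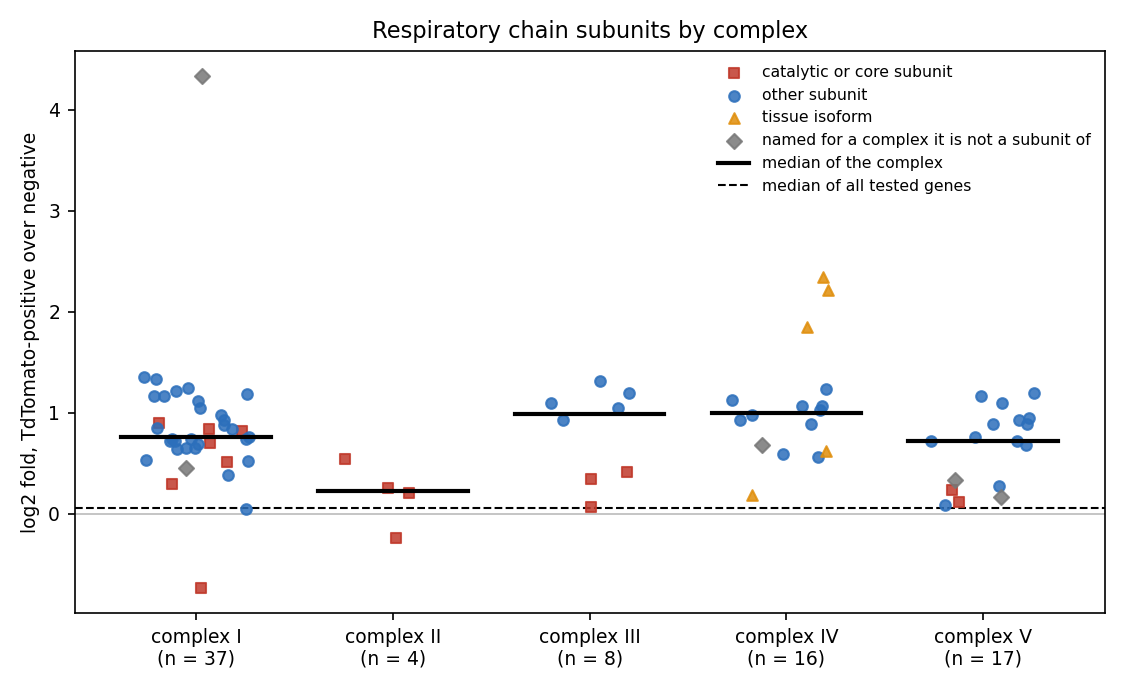
Log2 fold of each of the 82 subunits read (vertical axis, TdTomato-positive over TdTomato-negative), spread sideways within its complex and marked by role, with the median of each complex as a bar. The medians of complexes I, III, IV and V lie between 0.72 and 1.00, that of complex II at 0.23 and that of all tested genes (dashed) at 0.06.

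The complexes had unequal medians, a difference that was not tested. The median log2 fold was 0.76 for complex I (36 of 37 higher), 0.23 for complex II (3 of 4), 0.99 for complex III (8 of 8), 1.00 for complex IV (16 of 16 read) and 0.72 for complex V (17 of 17). Pooled over complexes, the subunits counted as catalytic or core and the rest had unequal medians too. Counted as catalytic or core were 7 subunits of complex I, the 4 of complex II, and Atp5a1 and Atp5b of complex V. Uqcrfs1 of complex III was added, with Uqcrc1 and Uqcrc2, which are core proteins by name. These 16 had a median of 0.32, with 14 higher. Cyc1 of complex III lies outside the name rule. The 56 other structural subunits, leaving out the tissue forms and the 5 genes named above, had a median of 0.91, with 56 of 56 higher. They include the other head, stalk and ring subunits of complex V. Complex II lies only in the first set and complex IV only in the second. Within complex I the medians were 0.70 for 7 core and 0.80 for 28 accessory subunits. Within complex III they were 0.34 (3 genes) and 1.10 (5 genes). The median transcript was 1657 nt long in the first set and 659 nt in the second, and the fold followed transcript length in the whole table, as given further on.

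Complex I takes electrons from NADH with flavin and iron-sulfur proteins. Its core members spanned log2 folds from -0.73 (Ndufs1) to 0.90 (Ndufs3), with a median of 0.70. Ndufs1 (chromosome 1, 63143596 to 63176834, mm10), which carries iron-sulfur clusters of the NADH arm, had levels of 13.2 and 21.3 in the negative libraries. Its positive values were 15.4 and 5.87 in one order and 4.21 and 20.4 in the other, so the groups overlapped in both. Without the positive library of higher depth its log2 fold was -0.12, in the first of those orders. Ndufv1, which binds NADH and flavin, had settled levels of 37.4 and 62.3 in positive and 20.6 and 34.9 in negative cells, a log2 fold of 0.84 with the groups apart. Ndufs8, an iron-sulfur protein next to the membrane arm, was also apart, at 51.8 and 63.6 against 35.2 and 45.7 (0.51).

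The 28 accessory subunits of complex I were all higher in positive cells, from 0.05 for Ndufa10 to 1.35 for Ndufa5, with a median of 0.80. Ndufa5 had levels of 40.3 and 37.4 in positive and 16.6 and 12.9 in negative cells, and Ndufa2, the accessory subunit with the highest level, 145 and 206 against 80.1 and 65.6 (1.25). In both the lower positive value exceeded the higher negative one by more than 1.5 times. Ndufb2, a small subunit of the membrane arm, had a log2 fold of 1.33, with negative levels of 42.7 and 51.3 and positive levels of 111 and 133 in one order or 101 and 145 in the other. Ndufb7, another membrane arm subunit, lay lower at 0.74, with negative levels of 79.1 and 75.4 and positive levels of 136 and 123 or 94.5 and 178. Ndufa10, a matrix-side subunit, did not separate the groups: its settled levels were 25.2 and 22.1 in positive and 24.9 and 20.5 in negative cells. Of the 17 complex I genes with settled values, Ndufa10 was the only one whose groups overlapped.

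Complex II, succinate dehydrogenase, is also an enzyme of the tricarboxylic acid cycle and holds no subunit made in the mitochondrion. Its 4 genes had the smallest median fold of the complexes. Sdha (chromosome 13, 74322254 to 74350281) had levels of 35.4 and 59.3 in negative cells and, in positive cells, 39.4 and 37.9 or 28.9 and 51.6. Sdhb, the iron-sulfur subunit (chromosome 4, 140961203 to 140979194), had 63.9 and 72.2 in negative cells and 80.5 and 82.3 or 62.9 and 105 in positive cells, a log2 fold of 0.26. The membrane anchors Sdhc (chromosome 1, 171127165 to 171150604) and Sdhd (chromosome 9, 50596338 to 50603850) had folds of 0.54 and 0.21. Sdhd had settled levels of 44.6 and 96.9 in positive and 42.2 and 76.3 in negative cells, so the libraries of 1 group differed more than the groups did. The median of the 4 was -0.02 without the negative library of lower depth, 0.01 without the positive library of higher depth and 0.39 without the negative library of higher depth, so its sign rests on single libraries.

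Complex III hands electrons from ubiquinol to cytochrome c. Its small subunits had the higher folds: the 5 accessory subunits ranged from 0.93 (Uqcrb) to 1.31 (Uqcr11), with a median of 1.10. Uqcrq, a small membrane subunit, had settled levels of 178 and 252 in positive and 101 and 96.6 in negative cells. Uqcr10 had the highest level of the complex, with 100 and 93.9 in negative cells and 205 and 242 or 185 and 267 in positive cells (1.2). The 3 core-type subunits had a median of 0.34. Uqcrfs1, the Rieske iron-sulfur protein that carries the electron to cytochrome c1, had 31.9 and 90.1 in positive and 39.2 and 66.2 in negative cells (0.07), with the groups overlapping and the positive libraries farther apart than the group means. Uqcrc1 and Uqcrc2, the large matrix-side core proteins, had folds of 0.41 and 0.34.

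Complex V couples the proton gradient to ATP synthesis. Its 17 genes were all higher in positive cells, from 0.09 for Atp5f1 to 1.2 for Atp5e, and the parts of the enzyme had unequal medians. The 5 subunits of the catalytic head and central stalk had a median of 0.28: the catalytic Atp5b, the most abundant member of the complex, had 186 and 351 in negative cells and 322 and 281 or 216 and 420 in positive cells (0.24), and Atp5a1 had a fold of 0.12. Atp5e, the smallest subunit of the stalk, lay apart from these at 1.2, with 113 and 107 in negative cells and 256 and 248 or 191 and 334 in positive cells. The peripheral stalk had a median of 0.70 (4 genes). Its highest member, Atp5h, had 123 and 167 in negative cells and 247 and 284 or 218 and 321 in positive cells (0.89), and Atp5f1, which braces the head, had 84.1 and 116 in negative cells and 104 and 107 or 81.7 and 136 in positive cells (0.09). The membrane subunits Atp5j2, Atp5k and Atp5l had a median of 0.95. Atp5s and Atp5sl had the lowest levels, with means of 3.83 and 7.06.

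The ring that rotates in the membrane is built of 1 protein encoded by 3 genes that differ in the part cut off on import. All 3 copies were higher in positive cells. Atp5g3, the most abundant, had a log2 fold of 0.76, with 141 and 155 in negative cells and 229 and 274 or 210 and 298 in positive cells. Atp5g1 and Atp5g2 had folds of 1.17 and 0.89, with negative levels of 76.4 and 84.0, and of 84.1 and 95.1. The order of Atp5g1 and Atp5g2 in level is not clear, since their ranges overlap in the positive libraries. Subunits of all complexes have near-identical processed copies elsewhere in the genome, and how reads that fit several places were counted is not given in the sources used here.

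Complex IV reduces oxygen to water. The 10 subunits that are not tissue forms had a median log2 fold of 1.00, from 0.56 (Cox5a) to 1.24 (Cox6c). Cox4i1, the subunit through which ATP inhibits the enzyme, was the most abundant gene of the whole set, with 166 and 228 in negative cells and 458 and 363 or 279 and 597 in positive cells (1.07). Cox6a1 was the next in complex IV, with 157 and 202 in negative cells and 320 and 411 or 316 and 417 in positive cells (1.03). Cox8a had settled levels of 266 and 366 in positive and 154 and 183 in negative cells (0.89), with the groups apart. Cox7a2 was apart by less, at 103 and 155 against 69.9 and 100 (0.59), where the lower positive and the higher negative value almost met. Cox7b, with 70.0 and 106 against 33.2 and 45.6 (1.13), was clearly separate, and its testis form Cox7b2 was listed at 0. Cox6b1, with 102 and 121 in negative cells and 203 and 223 or 171 and 265 in positive cells, had a fold of 0.93. The supercomplex factor Cox7a2l had a fold of 0.68 and Ndufa4, the subunit listed by name in complex I, one of 0.45.

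The second forms of complex IV subunits had much lower levels and another pattern over the libraries. Their values are settled, so each library can be read. Cox7a1, the heart and skeletal muscle form of Cox7a2 (chromosome 7, 30184144 to 30186079), had levels of 18.3 and 6.79 in positive and 6.75 and 0.378 in negative cells, from 230, 111, 45 and 11 reads. Its log2 fold was 2.22 and the groups did not overlap, but the second positive and the first negative value were almost equal. Cox8b, the heart, muscle and brown fat form of Cox8a (chromosome 7, 140898943 to 140900447), had 21.5 and 5.74 against 10.3 and 0.0751, the last from 2 reads, so its groups overlapped at a log2 fold of 2.34. Cox4i2, the form of Cox4i1 known from lung and from low oxygen (chromosome 2, 152754173 to 152765038), had 9.30 and 5.75 against 2.27 and 0.112 (1.85). All 3 were highest in the positive library of lower depth and lowest in the negative library of higher depth.

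Cox6a2, the heart and skeletal muscle form of Cox6a1, had 22.0 and 9.79 in positive and 20.7 and 7.99 in negative cells (0.19), with each group's libraries about equally far apart. Cox6b2, known from testis, had 11.4 and 28.3 against 8.49 and 15.8 (0.62), highest in the positive library of higher depth. Against their ubiquitous partners these forms were minor in every library: Cox8a exceeded Cox8b and Cox7a2 exceeded Cox7a1 by more than 5 times even where the second form was highest. The folds of the 3 uneven genes were smaller without the negative library of higher depth, with Cox4i2 keeping the most. Without it the log2 folds were 0.69 for Cox7a1, 0.11 for Cox8b and 1.23 for Cox4i2, and with an offset of 1 in place of 0.1 they were 1.07, 1.02 and 0.48.

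Ndufa4l2 had the largest fold of the set. It is the paralogue of Ndufa4 that low oxygen induces through HIF-1 and that lowers oxygen use (chromosome 10, 127514939 to 127517153). Its settled levels were 84.6 and 22.6 in positive cells and 20.1 and 0 in negative cells, from 2526, 880, 319 and 0 reads. The groups did not overlap, but the higher negative value lay just under the lower positive one. The log2 fold of 4.33 contains a library at 0 and so depends on the offset: it was 2.68 with an offset of 1, and 1.11 without the negative library of higher depth. Ndufa4 itself varied far less across the libraries, with 98.2 and 126 in negative cells and 167 and 139 or 106 and 217 in positive cells. In the positive library of lower depth Ndufa4l2 lay below Ndufa4 in both orders, and in the negative library of higher depth no read of it was found.

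**Figure D2:**
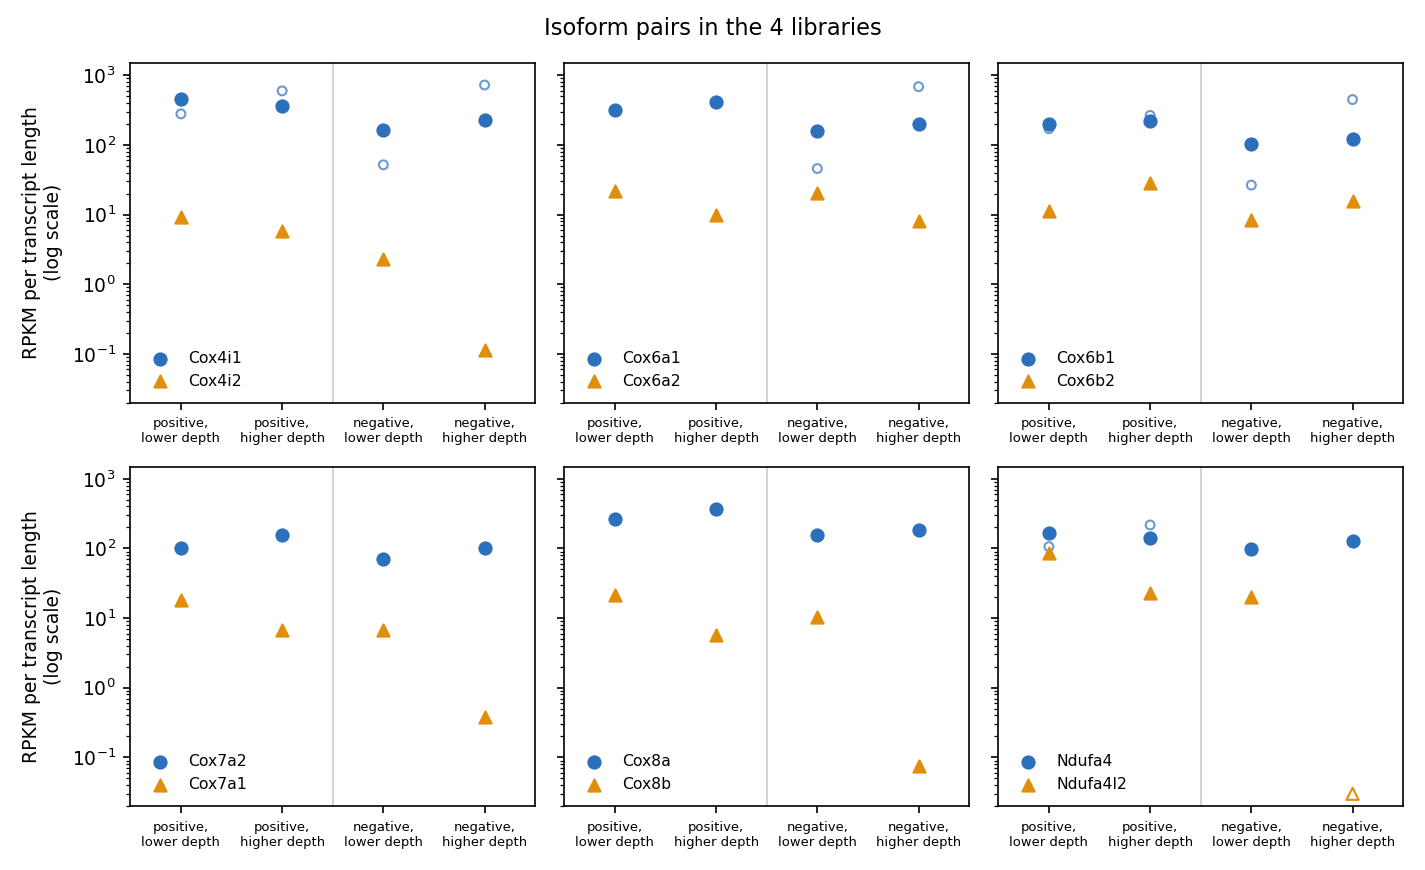
Levels (RPKM per transcript length, log scale) of 6 isoform pairs in the 4 libraries, ubiquitous form in blue and second form in orange. Small open circles show the other order of values that were not settled, and the open triangle marks Ndufa4l2 at 0, drawn at the bottom of the axis. The ubiquitous forms stay within a few-fold across libraries, while Cox4i2, Cox7a1, Cox8b and Ndufa4l2 drop in the negative library of higher depth.

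Muscle fibre and brown fat genes are known to go with the muscle forms, so their values are given beside them. The 10 muscle fibre genes had a median log2 fold of 1.33 (9 above 0). Summed over the 4 whose values are settled (Eno3, Mb, Mylpf and Pygm), the RPKM per kilobase of genomic span was 19.4 and 10.5 in positive cells and 27.5 and 1.04 in negative cells. With every order allowed, the sums of all 10 lay between 90.4 and 265 in positive and between 1.97 and 962 in negative libraries. Myoglobin (Mb), whose values are settled, had levels of 60.6 and 15.6 in positive and 68.3 and 0.358 in negative cells. All 4 settled muscle genes were highest in the negative library of lower depth, where Cox7a1, Cox8b and Cox4i2 were not, and lowest in the negative library of higher depth, where these were lowest too. The brown fat genes Ucp1 and Dio2 were low (means of 0.292 and 2.03), with log2 folds of 0.68 and 1.21, and Cidea was listed at 0 in all libraries. Elovl3, the last gene of that list, missed the read filter. It had 84 reads in the negative library of higher depth and 0 in the others. The part of muscle RNA in the levels of Cox7a1, Cox8b and Cox6a2 was not tested.

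The start-site windows of the 2 muscle-form genes with the larger folds and of their ubiquitous partners are shown because the members of each pair differ both in their values and in sequence. They are the 250 bases before the RefSeq start (GRCm38.p6, which is mm10), written in the direction of the gene, lower case except for motif matches.
Cox7a1: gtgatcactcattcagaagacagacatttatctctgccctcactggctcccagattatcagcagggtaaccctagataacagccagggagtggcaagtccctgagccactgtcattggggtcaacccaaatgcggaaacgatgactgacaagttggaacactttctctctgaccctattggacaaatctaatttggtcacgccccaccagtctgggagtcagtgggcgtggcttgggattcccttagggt
Cox7a2: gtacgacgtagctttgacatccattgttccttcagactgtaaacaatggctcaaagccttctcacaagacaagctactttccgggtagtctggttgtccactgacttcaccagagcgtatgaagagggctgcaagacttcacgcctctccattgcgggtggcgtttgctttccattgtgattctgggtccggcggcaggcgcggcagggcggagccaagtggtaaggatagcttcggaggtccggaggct
Cox8b: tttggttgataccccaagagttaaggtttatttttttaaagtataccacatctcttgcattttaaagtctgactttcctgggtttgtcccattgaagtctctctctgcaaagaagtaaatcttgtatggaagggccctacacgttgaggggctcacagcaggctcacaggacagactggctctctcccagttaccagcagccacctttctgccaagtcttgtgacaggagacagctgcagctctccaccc
Cox8a: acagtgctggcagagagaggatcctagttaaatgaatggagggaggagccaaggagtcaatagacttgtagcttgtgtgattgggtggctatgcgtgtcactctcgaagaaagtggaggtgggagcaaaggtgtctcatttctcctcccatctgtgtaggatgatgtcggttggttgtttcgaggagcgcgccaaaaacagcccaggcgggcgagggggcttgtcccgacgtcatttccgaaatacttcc
Cox6a1: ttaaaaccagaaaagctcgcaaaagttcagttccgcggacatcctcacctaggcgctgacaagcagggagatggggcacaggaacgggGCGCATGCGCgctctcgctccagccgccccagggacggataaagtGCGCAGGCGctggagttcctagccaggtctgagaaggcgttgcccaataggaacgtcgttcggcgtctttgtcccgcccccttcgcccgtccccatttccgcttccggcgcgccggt
The Cox7a1 window (chr7:30183921-30184170, plus strand) holds 4 CpG dinucleotides and that of Cox7a2 (chr9:79759854-79760103, minus strand) 14. The Cox8b window (chr7:140900447-140900696, minus strand) holds 1 and that of Cox8a (chr19:7217617-7217866, minus strand) 11. The median was 14 over the 68 tested subunits with a window and 15 over all 10725 tested genes with one. Both muscle forms thus have few CpG, and their partners are near the median.

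The Cox6a1 window (chr5:115348959-115349208, minus strand) is shown for its matches, in capitals, to the core of the site of NRF1, a factor known for switching on nuclear respiratory genes. The motif searched was GCGCANGCG on both strands. Cox6a1 holds 3 matches, which begin 162, 161 and 117 bases before the start, and the first of these overlaps the next. The motif was present in 13 of the 68 windows of tested subunits (19.1%) and in 10.5% of the 10725. Subunits with a match had a median log2 fold of 0.93 and those without one 0.74. The site of GABPA (CCGGAAGT) was present in 3 of 68 (4.41%, against 5.46% of all), that of YY1 (AAGATGGCG) in 0 of 68 (1.07% of all) and that of ESRRA (TCAAGGTCA) in Atp5g3 alone (1.47%, against 0.242%). A match is a description of these letters and not of binding.

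Transcript length went with the fold. The subunits are short: their median transcript was 751 nt against 2791 nt over all 14075 tested protein-coding genes, and 54 of 82 (65.9%) were at most 1000 nt long, against 7.32% of all. Among other protein-coding genes with a level of at least 10, the median log2 fold was 0.97 up to 600 nt (137 genes), 0.77 from 601 to 1000 nt (498), 0.52 from 1001 to 1500 nt (816), 0.05 from 1501 to 2500 nt (1550) and -0.38 above 2500 nt (1876). The subunits of the same classes had medians of 1.06, 0.74, 0.68, 0.34 and -0.24. Set against the median of its length class, the median subunit was higher by 0.10. Of the 82, 48 lay above and 34 below their class median, and 66 lay within the middle 50% of their class. Most short genes outside the chain were also higher in positive cells, 82.5% of those up to 600 nt and 82.7% of those from 601 to 1000 nt, with medians close to those of the subunits.

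The subunits beyond that range were few. Of 15 above it, those farthest from the class median were Ndufa4l2 (3.56 above), Cox8b (1.37), Cox7a1 (1.25) and Cox4i2 (1.08), followed by Sdhc (0.92), Ndufv1 (0.79) and Ndufv2 (0.77). The subunits were not filtered by level. Cox8b, Cox7a1 and Cox4i2, with mean levels of 9.4, 8.06 and 4.36, lie below the minimum of 10 set for the other genes. Cox6a2 was the single gene below, by 0.58. The rank correlation of fold with transcript length was -0.62 over the 82 subunits and -0.41 over 4954 genes with a level of at least 10, with all points from the same 4 libraries. Over the subunits it was -0.5 with the longest in place of the shortest best-supported principal transcript, and -0.43 with genomic span. Ndufs1 and Sdha, the only subunits with a fold below 0, are 2590 and 2900 nt long. Sdhc, the longest subunit at 3171 nt, had a log2 fold of 0.54. The part of transcript length in the difference between groups was not tested.

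**Figure D3:**
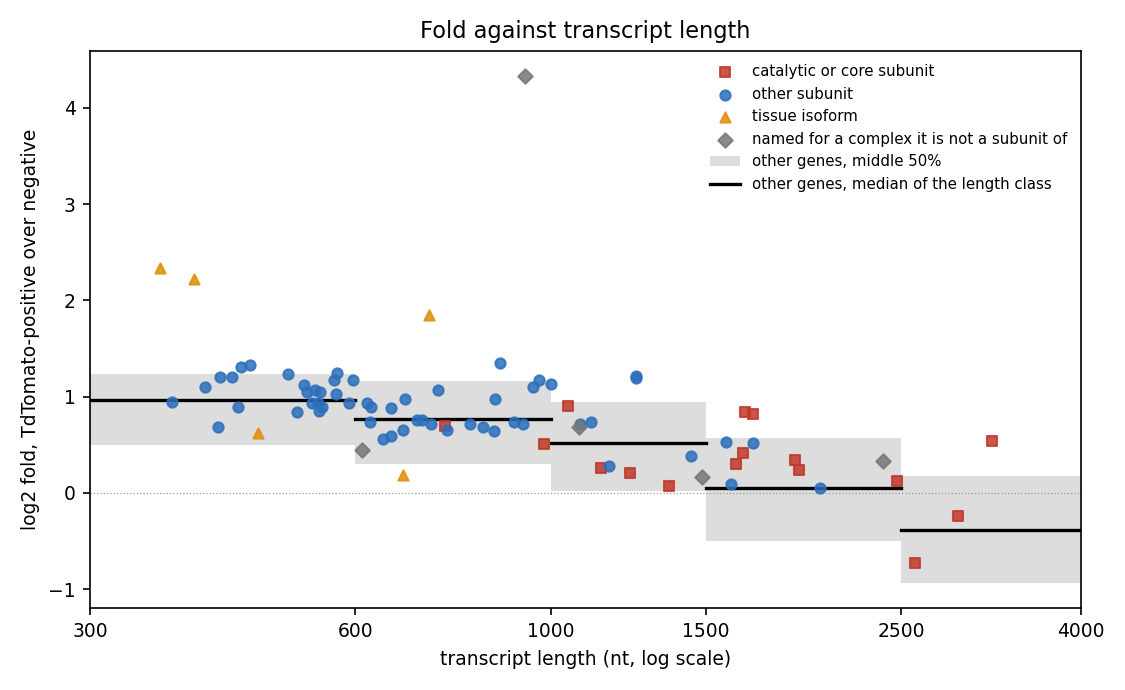
Log2 fold of the 82 subunits (vertical axis) against transcript length (log scale), marked by role, over the median (line) and middle 50% (grey) of other protein-coding genes with a level of at least 10 in 5 length classes. The grey steps fall from 0.97 in the shortest to -0.38 in the longest class, and 66 of 82 subunits lie in the grey.

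Between libraries of a group the subunits also differed. Of the 31 with settled values, 22 were highest in the positive library of higher depth and 9 in that of lower depth. The lowest value lay in the negative library of lower depth for 13, in that of higher depth for 17 and in the positive library of lower depth for 1. Without the tissue forms and Ndufa4l2, the positive library of higher depth was the highest for 21 of 25 and the lowest values were split evenly, 12 and 12, between the negative libraries. Over all 84 genes the subunits took 0.843% and 1.21% of gene reads in the positive and 0.59% and 0.642% in the negative libraries, with unsettled values in the order of smaller difference. Without the negative library of higher depth the median log2 fold of the 82 was 0.87, and without that of lower depth 0.74.

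**Figure D4:**
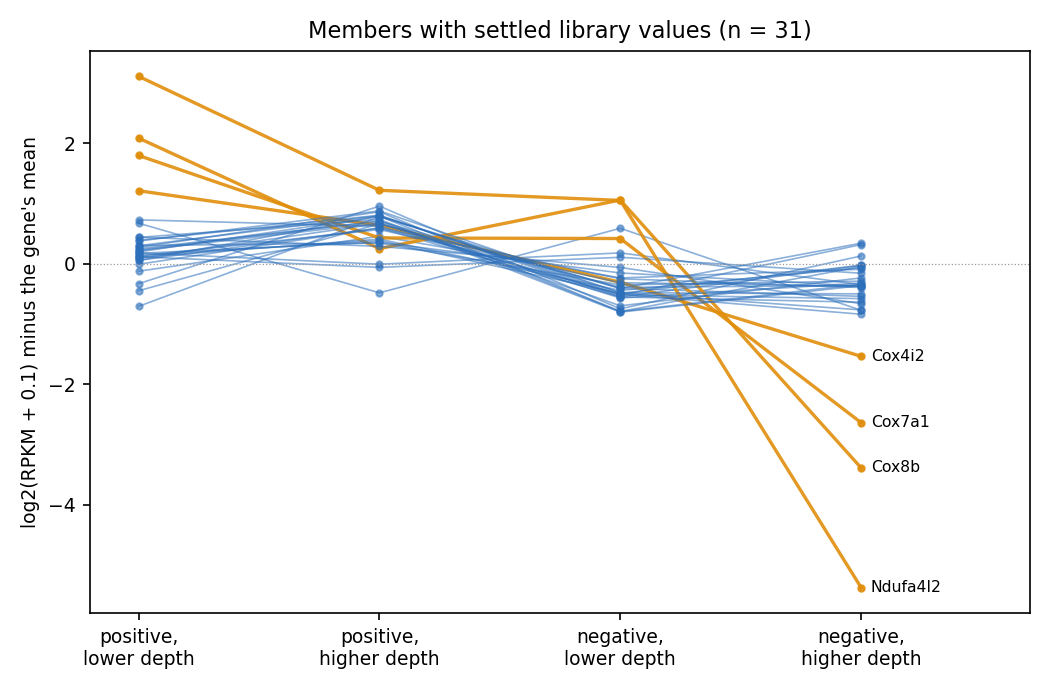
Values of the 31 subunits with settled library values, as log2(RPKM + 0.1) minus the gene's mean over the 4 libraries (lines join the values of 1 gene and carry no order in time). In 23 of the 31 genes both positive libraries lie above both negative ones, the others overlap, and the orange lines of Cox4i2, Cox7a1, Cox8b and Ndufa4l2 start highest in the positive library of lower depth and end lowest in the negative one of higher depth.

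On the group means of the authors' deposited table, multiplied by genomic span, the difference was smaller. Cox8a, Cox6a1 and Cox7c had 1920, 1710 and 1700 in positive and 1300, 1030 and 1090 in negative cells, Atp5b had 2270 and 2120, Ndufa2 1220 and 724, Uqcr10 1120 and 659, and Sdhd 308 and 292. These means weight the shallow libraries more, since the values carry a second division by depth. Genes with no reads at all have a log2 ratio of -0.39 on this scale, and the median of all tested genes is -0.26. Of 82 subunits 72 had a ratio above 1, against 35.9% of tested genes, and their median log2 ratio was 0.46. These means remain per kilobase of genomic span, so a gene with long introns such as Atp5o (247290 bp, 13.8 and 11) is listed far below its level per transcript (positive 102 and 138 in one order).

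Genes around the chain that the name rule leaves out were read from lists of their function. The 6 further subunits and partners (Cyc1, Cycs, Ndufab1, Usmg5, 2010107E04Rik and Atpif1) all had the higher mean in positive cells (median log2 fold 0.69). The highest of them was Atpif1, which blocks reverse action of ATP synthase, at 0.83. Cyc1, the cytochrome c1 of complex III, had settled levels of 45.8 and 71.7 against 38.5 and 43.0 (0.49). Of 36 assembly factors, which build the complexes but stay outside them, 26 were higher, with a median of 0.50. The positive libraries were both above the negative ones in 15 and both below in 3. Uqcc2, needed for complex III assembly, had the highest fold of these (1.74), and Coa5, a complex IV factor, the lowest (-1.10, at 4.82 and 4.93 against 6.82 and 17.1).

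Lists of other mitochondrial functions had lower medians, a difference between lists that was not tested. Of 14 tricarboxylic acid cycle genes 8 were higher, with a median of 0.09. Mdh2, malate dehydrogenase and the most abundant, was at 0.20, Cs, citrate synthase, at -0.76 and Idh3b, a regulatory subunit of isocitrate dehydrogenase, at 1.03. Of 12 regulators of mitochondrial biogenesis 7 were higher (median 0.08). Nrf1 itself had levels of 10.1 and 14.0 in positive and 13.8 and 27.0 in negative cells (-0.51), and Gabpb1 was at -1.12. Ppargc1a, the coactivator PGC-1 alpha, was near the floor at 0.581 and 0.1 against 0.0638 and 0.468. The 6 mitochondrial antioxidant genes had a median of -0.06, with 2 higher. Among carriers, Slc25a4, the muscle form of the ATP-ADP exchanger, had a fold of 1.51, Slc25a5 one of 0.26 and Ucp2, abundant in leukocytes, one of -1.34. None of the genes of these lists had an authors' p below 0.05.

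Ribosomal protein genes, which are short and do not belong to respiration, were read as a comparison. Of 82 cytosolic ribosomal protein genes tested, 81 were higher (median log2 fold 1.00, median transcript 774 nt). For the mitochondrial ribosomal proteins 72 of 77 were higher (median 0.66, transcript 1223 nt). The tricarboxylic acid cycle genes, at a median of 2473 nt, and the regulators, at 3134 nt, are longer. Whether the subunits differ from other short genes was not tested beyond the class medians given above.

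**Figure D5:**
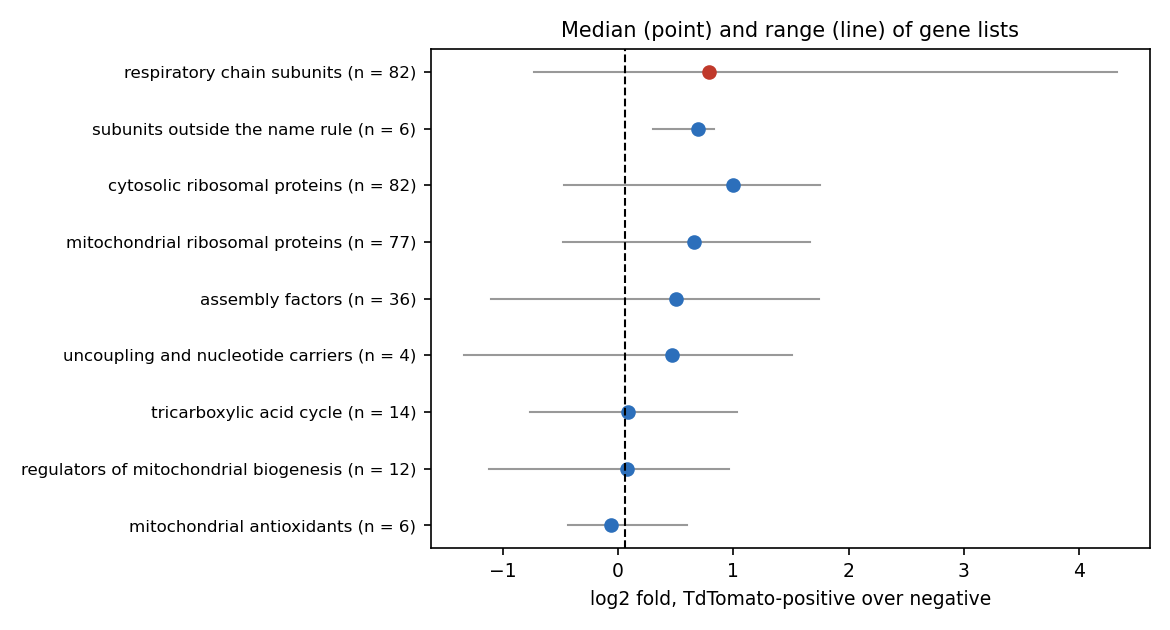
Median (point) and range (line) of the log2 fold in the respiratory chain subunits (red) and in 8 other gene lists (blue), with the median of all tested genes dashed. Subunits (0.79) lie between mitochondrial (0.66) and cytosolic (1.00) ribosomal proteins, and tricarboxylic acid cycle genes (0.09) and regulators (0.08) lie at the dashed line.

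The 13 subunits encoded by mitochondrial DNA could not be set beside their nuclear partners. They are in the table, but all 13 are listed at 0 reads in all 4 libraries. These are among the most abundant transcripts of most cells, so the zeros are not read as absence of expression here.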

How the data were processed

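RNA of 4 libraries (2 per group) was read as 75-nucleotide pairs, per the labels' protocols, and processed with STAR and Partek on mm10, per the submitters' processing notes. Their versions, not given in the sources used here, could not be stated. The deposited table holds the authors' comparison over 47643 genes in 29 columns. Per the file headers these are group means of a normalized signal, the group difference on the natural log scale, the ratio of means, a p-value with its step-up FDR (the model headed lognormal with shrinkage), and the highest value, the total and a model criterion, used here as scores. Single libraries have no column.

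As each group has 2 libraries, the deposited means, highest value and log difference fix 4 library values for each gene (1 solution in 47643 of 47643). They were converted to RPKM per kilobase of genomic span. The offset of 0.1, the depths and a second division by depth were inferred from unread genes: of 11093 genes under 2000 reads, 62.5% gave whole reads in all 4 libraries at an offset of 0.1 and 0.613% at 0.05 (tolerance 0.01 reads). A pair's order counted as settled where whole reads or a negative value decided it. An order was also settled where it alone gave 1 value within 0.002 of whole reads, or where both orders gave nearly the same reads. On simulated data for 47643 genes, 99.9% of whole-read genes were settled, 100% of them correctly. Of genes with fractional reads 10.2% were settled, 97.4% of them correctly. The simulation was built with the same offset, depths and second division by depth, so it cannot check these. Its fractional reads came from a fixed factor, so its shares need not hold for the subunits. Reads in genes made up 65.2% to 85.9% of the implied depth, with unsettled values in the order of smaller difference. With all unsettled values swapped the share was 40.4% to 215%.

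The test was the authors' deposited p and FDR, at 0.05. The planned ratio of group means was taken between geometric means, and the authors' ratio was added as an alternative after the data were seen. The alternative test was limma 3.58.1 (R 4.3.3) on log2(RPKM + 1). In a simulation of 18190 genes with 200 changed 4-fold, limma called 0 at that FDR and gave 183 of the 200 an unadjusted p below the same threshold. Scripts used Python 3.11.15, pandas 2.3.3 and numpy 2.4.6. Transcript lengths are those of the shortest best-supported principal transcript of GENCODE M21 (mm10), found for all 84 genes. Start-site windows come from RefSeq (69 of 84 matched).

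Named are, per complex, the 3 genes of highest level and the 2 of largest fold each way, genes with a p below the threshold, all isoform sets and the 4 Sdh genes. Of other lists the plan was to name those with such a p and the 3 highest, but only some of the 3 highest are named. Other genes were named after their values were seen, among them Ndufv1, Ndufv2, Ndufs3, Ndufs8, Ndufb2, Uqcrc1, Cox6c, Atp5o, Mb, Cyc1, Ppargc1a, Uqcc2, Coa5, Cs and the marker genes with settled values. The genes, lists and tests were chosen with earlier results of these data known. Alternatives were an offset of 1 or none, no filter, median-of-ratios scaling, leaving out each library, settled genes only and a replicate block. The smallest exact two-sided p of 2 against 2 libraries is 0.333.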

Additional observations from a re-analysis of the deposited data

How the results depend on the processing

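The median log2 fold of the subunits (0.79) was 0.71 with an offset of 1, 0.85 without an offset, 0.46 as the authors' ratio of means and 0.74 to 0.91 when each library was left out. By complex the authors' ratio gave 0.44 (I), 0.00 (II), 0.59 (III), 0.63 (IV) and 0.37 (V), all lower; the cause was not tested, and unread genes sit at -0.39 on that scale. Among settled genes complex III had 0.59 (2 genes) and complex V 0.33 (3 genes). Leaving out each library gave 0.72 to 0.89 for complex I, 0.83 to 1.08 for III, 0.84 to 1.16 for IV and 0.64 to 0.85 for V. For complex II it gave -0.02 to 0.39, with the sign reversed to -0.02 without the negative library of lower depth; the cause was not tested. Values that leave out a library use the order of smaller difference for unsettled genes.

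The count of subunits higher in positive cells (80 of 82, against 54.0% of tested genes) was 72 to 78 without each library, against 47.3% to 57.5%. It was 72 by the authors' ratio, against 35.9%, and 31 of 31 settled genes. The count with groups apart was 63 in the order of smaller difference, 67 with median-of-ratios scaling and 31 under either order. The share of tested genes with the positive libraries on top was 15.5% under either order and was not computed for the other settings. No setting gave a subunit an FDR below 0.05. Unadjusted p below 0.05 was reached by 1 subunit in the authors' table and, in limma, by 49, by 19 with a pseudocount of 0.1, by 48 without the filter, by 46 with median-of-ratios scaling, by 14 of 31 settled genes and by 39, 30, 33 and 38 when single libraries were left out (positive, then negative, lower depth first). No value carries a collection number, so both possible pairings were run as a replicate block in limma. An unadjusted p below 0.05 was reached by 53 subunits with the lower depths paired (14.7% of all tested genes). With lower and higher depth paired it was reached by 33 (7.03%), and 0 reached an FDR of 0.05 in both. The number of libraries, 2 per group, limits the precision of every value. In the negative library of higher depth Cox8b rests on 2 reads, and Ndufa4l2 has 0.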
